A study of Mus musculus with 6 samples.

Results

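The genes described here are the mouse Slc25a family, which encodes the carriers that move solutes across the inner mitochondrial membrane. They were taken as every gene whose symbol starts with Slc25a and is the only symbol of its probe set, apart from the carnitine/acylcarnitine carrier gene Slc25a20. This gave 45 genes out of 19938 named genes on the array, and a gene with several probe sets was represented by its brightest on average. Of the 45, 42 passed a filter on dim signals and were tested, and Slc25a21, Slc25a31 and Slc25a54 did not.

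The study measured RNA of the gastrocnemius, a calf muscle, of male mice at 12 weeks of age with Affymetrix arrays, 1 array per sample. It compared 3 wild type samples with 3 samples labelled as homogenous SPARC knockouts, in order to compare metabolic gene expression. SPARC is a secreted matricellular glycoprotein. All 6 samples carry the strain label B6;129S-Sparctm1Hwe/J, a mixed background. The labels name no other allele or treatment, and neither litter nor array batch is given. Arrays were treated as separate mice, which the design text implies.

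Carriers of this family share a fold of similar repeats and exchange nucleotides, phosphate, carboxylates, amino acids, cofactors and metals between the cytosol and the mitochondrial matrix. In muscle they feed oxidative phosphorylation, since the ADP/ATP carrier exports the ATP that contraction uses and the phosphate carrier imports its other substrate. The aspartate/glutamate and oxoglutarate carriers form the malate-aspartate shuttle, which passes the reducing equivalents of glycolysis to the respiratory chain. Most members are made without a cleaved presequence, and the TIM22 complex inserts them into the inner membrane.

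Sparc itself was at 11.80, 11.73 and 11.87 in wild type arrays 1 to 3 and at 6.74, 6.46 and 5.83 in knockout arrays 1 to 3 on the log2 intensity scale. The knockout arrays differed more among themselves than the wild types did, with a median SD over all tested genes of 0.163 against 0.0912, and knockout array 2 was nearest to the wild type mean in 45.8% of them. The arrays had median intensities of 40.5 to 44.7. The muscle fibre markers fixed for this tissue were bright in all arrays, with a summed intensity of 82071 to 82844 over 12 genes in wild types and 72615 to 80474 in knockouts. In whole muscle, fewer cells of a type and less RNA per cell cannot be told apart.

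No Slc25a gene passed an adjusted p of 0.05 between the genotypes (limma, adjusted over all 16487 genes tested), where 0.995% of all genes did. At an unadjusted limma p under 0.05, 7 of the 42 tested carriers were lower in the knockouts and 0 higher, which is 16.7% and 0%, against 10.3% lower and 8.16% higher among all genes. The 7 were Slc25a44, Slc25a33, Slc25a37, Slc25a16, Slc25a26, Slc25a22 and Slc25a38. In 12 of the 42 carriers the highest knockout reading was under the lowest wild type reading (28.6%, against 13.8% of all genes), and in 2 the lowest knockout was over the highest wild type (4.76%, against 11.1%). The change was negative in 30 carriers and positive in 12, with a median of -0.09 on the log2 scale, while the median over all genes was 5.3e-05. Among the scalings tried, centring arrays on their medians turned Slc25a3 negative and a second quantile normalization turned Slc25a42 positive, and no other sign changed. The changes ran from -0.50 for Slc25a44 to 0.41 for Slc25a24, 1 carrier exceeded 0.5 in size, and 12 were under 0.1.

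**Figure D1:**
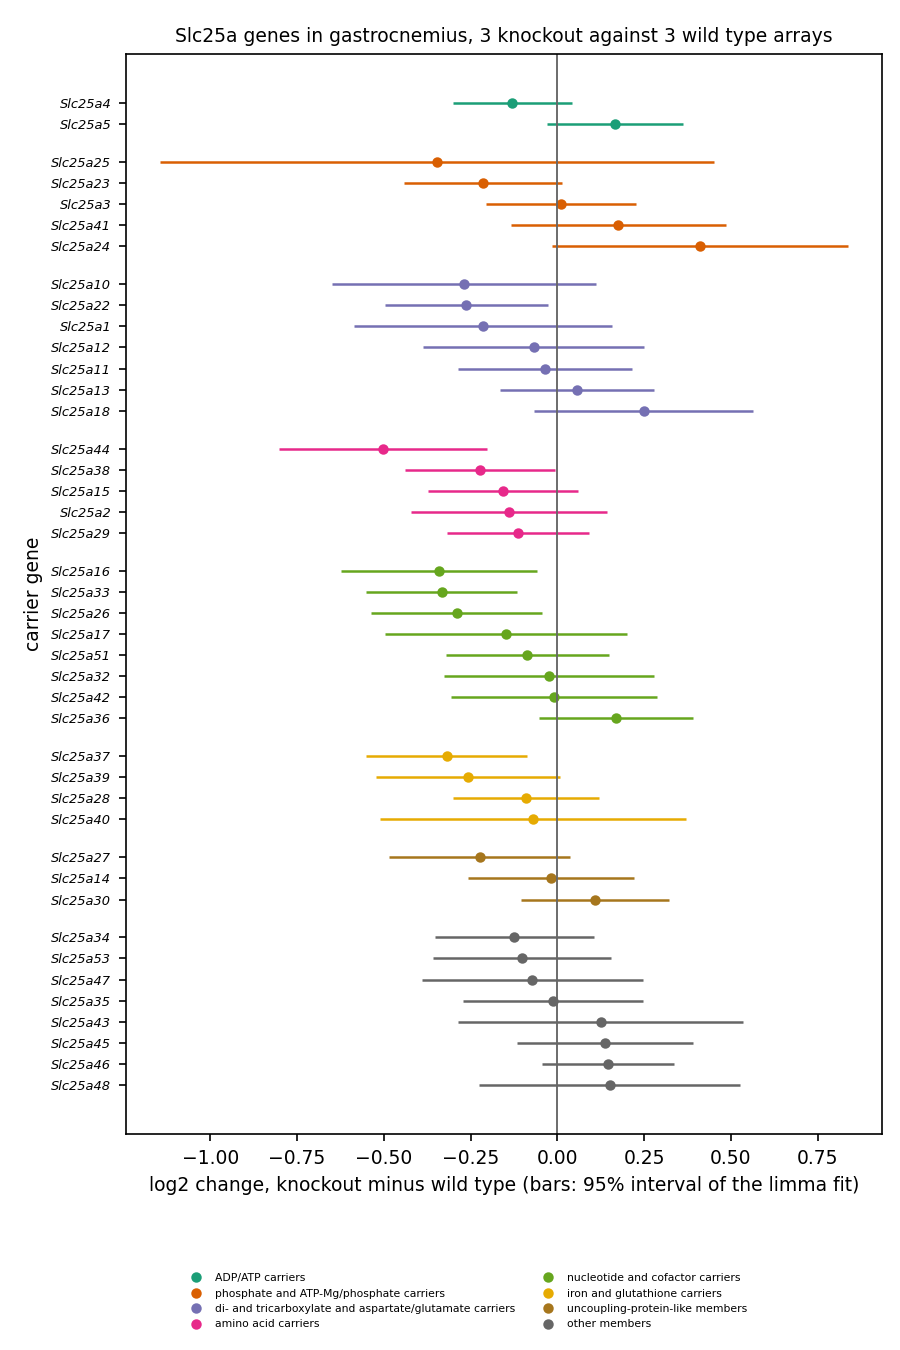
Log2 change (knockout minus wild type, horizontal axis) of the 42 tested Slc25a genes, grouped by what they carry. Points are the mean differences of 3 against 3 arrays and bars the 95% intervals of the limma fit, and the intervals of 7 genes, all on the negative side, leave out 0.

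Amino acid carriers had negative changes in all 5 tested members, with a median of -0.16. Slc25a44, the mitochondrial carrier of branched-chain amino acids, read 7.49, 7.68 and 7.62 in the wild types and 6.93, 7.37 and 6.99 in the knockouts. Every knockout reading lay below every wild type array, with knockout array 2 next to the lowest wild type. The means were 7.60 ± 0.0997 and 7.10 ± 0.240 (SD, n = 3 each), 1.42-fold lower in the knockouts (log2 change -0.50 ± 0.13 SE, limma adjusted p = 0.108). Without knockout array 2 its change was -0.64 and its adjusted p 0.0189, and over all alternatives these ran from -0.64 to -0.42 and from 0.0189 to 0.332. Slc25a38, the glycine carrier that serves haem synthesis, read 7.45, 7.36 and 7.46 in wild types and 7.12, 7.31 and 7.16 in knockouts. These groups did not overlap either, and the log2 change was -0.22 ± 0.09 (SE, limma adjusted p = 0.258). The ornithine carriers Slc25a15 and Slc25a2 had changes of -0.16 and -0.14, and Slc25a29, a carrier of basic amino acids, one of -0.11, with limma adjusted p-values of 0.429 to 0.612. Slc25a2 was close to the dim filter, with a mean of 4.29. Knockout array 2 was the knockout nearest to the wild type mean in 4 of the 5 amino acid carriers, and in Slc25a2 it was level with array 3.

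Nucleotide and cofactor carriers had negative changes in 7 of 8 tested members, 3 of the 8 at an unadjusted p under 0.05 (37.5%, against 10.3% lower among all genes). Slc25a33, a pyrimidine nucleotide carrier, read 6.91, 6.74 and 6.77 in wild types and 6.52, 6.50 and 6.39 in knockouts. Its groups were apart by more than the range within the knockouts, and array 2 was not set off from the other knockouts. The log2 change was -0.33 ± 0.10 (SE, limma adjusted p = 0.127), with 6.81 ± 0.0932 against 6.47 ± 0.0676 (SD, n = 3 each). Slc25a16, a carrier linked to coenzyme A, read 8.48, 8.34 and 8.50 in wild types and 8.08, 8.33 and 7.89 in knockouts. Knockout array 2 stood at the level of wild type array 2, and the other knockouts lay well below. Its log2 change was -0.34 ± 0.12 (SE, limma adjusted p = 0.196), and without knockout array 2 it was -0.46 with an adjusted p of 0.0497. Over all alternatives the change ran from -0.46 to -0.24 and the adjusted p from 0.0497 to 0.481. Slc25a26, which imports the methyl donor S-adenosylmethionine, read 7.37, 7.19 and 7.42 in wild types and 7.00, 7.17 and 6.93 in knockouts, again with array 2 at the edge of the wild types (-0.29 ± 0.11 SE, limma adjusted p = 0.202).

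The other members of that group showed smaller differences. Slc25a36, the second pyrimidine nucleotide carrier, was the only one with a positive change, 0.17 ± 0.10 (SE). Its other probe set, dimmer in all arrays, gave 0.19, with knockouts at 7.93, 8.11 and 8.04 above wild types at 7.82, 7.91 and 7.80. Whether the 2 probe sets read copies of the gene was not checked, so they are not taken as independent measurements. The peroxisomal carrier Slc25a17 (-0.15), the NAD carrier Slc25a51 (-0.09), the folate carrier Slc25a32 (-0.02) and the coenzyme A carrier Slc25a42 (-0.0096, or 0.01 after a second quantile normalization) had limma adjusted p-values of 0.673 to 0.98. For Slc25a42 the 95% interval of the change was -0.31 to 0.29. Slc25a17 was spread among the knockouts, at 7.95, 7.49 and 7.33, around wild types at 7.66, 7.79 and 7.76.

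**Figure D2:**
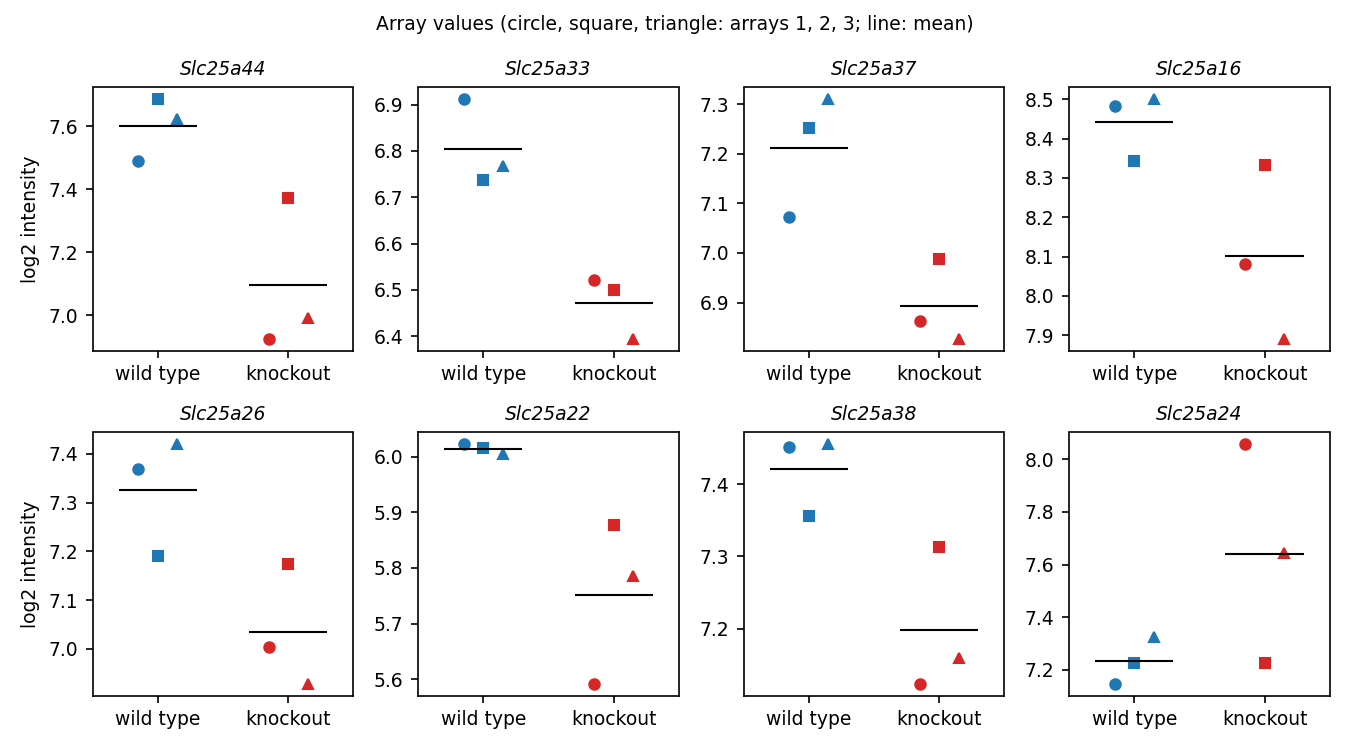
Log2 intensity (vertical axis, own scale in each panel) in every array for the 7 carriers at an unadjusted p under 0.05 and for Slc25a24, with wild type in blue, knockout in red and the group means as lines. Knockout array 2 (red square) is the knockout nearest to the wild type mean in every panel but that of Slc25a33.

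Iron and glutathione carriers were negative in all 4 members, with a median change of -0.17. Slc25a37, mitoferrin 1, which brings iron into mitochondria and is abundant in red cell precursors, read 7.07, 7.25 and 7.31 in wild types and 6.86, 6.99 and 6.83 in knockouts. The groups did not overlap, and the change was -0.32 ± 0.10 (SE, limma adjusted p = 0.153). Of 11 listed erythroid markers, 3 had a probe set of their own and 2 were tested, and none passed. Alas2, the erythroid enzyme of haem synthesis, read 6.24, 6.54 and 6.55 in wild types and 5.71, 5.93 and 5.18 in knockouts (-0.84 ± 0.19 SE, limma adjusted p = 0.0788). Slc4a1, the red cell anion exchanger, was at -0.13 ± 0.12 (SE, limma adjusted p = 0.625), and the untested Epb42 at -0.07, both with overlapping groups. The summed intensity of the 3 markers was 130 to 156 in wild types and 91.7 to 119 in knockouts. Their part in the Slc25a37 values was not tested. The haemoglobin genes share probe sets with each other and were not used. Slc25a28, mitoferrin 2, had a change of -0.09 ± 0.09 (SE). Slc25a39, a glutathione carrier, was at 8.11, 8.10 and 8.10 in wild types and at 7.60, 8.00 and 7.94 in knockouts, with the change of -0.26 ± 0.12 (SE, limma adjusted p = 0.287) resting most on knockout array 1. Its relative Slc25a40 read 6.70 in knockout array 1 against 6.03 and 5.90 in the other knockouts and 6.15 to 6.40 in wild types, and both of its probe sets had that pattern.

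The ADP/ATP carriers differed in sign. Slc25a4, the isoform of heart and skeletal muscle, read 13.05, 13.02 and 13.07 in wild types and 12.91, 13.00 and 12.83 in knockouts. All knockouts lay below the wild types, knockout array 2 by the least, and the 95% interval of the change was -0.30 to 0.04 (-0.13 ± 0.08 SE, limma adjusted p = 0.406). Slc25a5, the broadly expressed isoform, read 9.48, 9.51 and 9.49 in wild types and 9.71, 9.56 and 9.71 in knockouts, all above the wild types. Its change was 0.17 ± 0.09 (SE, limma adjusted p = 0.349). Its other 2 probe sets gave 0.13 and 0.16, also without overlap. All 3 are annotated with the same transcripts and Slc25a5 has a listed pseudogene, so they may read near-identical copies and are no independent measurements. Slc25a31, the testis isoform, read 2.81 to 3.05 over the 6 arrays, under the dim filter at 3.90.

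Among the phosphate carriers the change was positive in 3 and negative in 2 of 5 members. Slc25a24, a calcium-dependent ATP-Mg/phosphate carrier, read 7.15, 7.22 and 7.32 in wild types and 8.06, 7.22 and 7.64 in knockouts. Knockout array 2 lay within the wild types, and the other knockouts lay above them. The change was 0.41 ± 0.19 (SE, limma adjusted p = 0.289), and it rested on single knockouts. Without knockout array 2 it was 0.62 with a limma adjusted p of 0.0467, and without knockout array 1 it was 0.20 with one of 0.403. Over all alternatives the adjusted p ran from 0.0467 to 0.566. Markers of fibroblasts and tendon had the same order of knockout arrays, with a median shift from the wild type mean of 0.68, 0.15 and 0.57 in knockout arrays 1 to 3. All 12 of these markers were tested and had positive changes, and their summed intensity was 13858 to 15704 in wild types and 16897 to 24228 in knockouts. Macrophage markers were positive in all 11 tested as well, with summed intensities of 2582 to 2882 and 3532 to 6624, highest in knockout array 1. The part of these cells in the Slc25a24 values was not tested.

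The relatives of Slc25a24 showed other patterns. Slc25a23 read 7.16, 7.31 and 7.20 in wild types and 6.90, 7.13 and 7.00 in knockouts, without overlap (-0.21 ± 0.10 SE, limma adjusted p = 0.3). Slc25a25 varied more within each group than between them, at 6.30, 7.13 and 7.73 in wild types and 6.38, 6.49 and 7.26 in knockouts. Its interval, -1.14 to 0.45, was the widest of the tested carriers, and its change ran from -0.72 without wild type array 1 to -0.0061 without wild type array 3. Slc25a41 was close to the dim filter (0.18 ± 0.14 SE). Slc25a3, the phosphate carrier itself, read 10.45, 10.30 and 10.27 in wild types and 10.26, 10.47 and 10.32 in knockouts. Its change was 0.0095 with an interval of -0.21 to 0.23, which turned to -0.03 when arrays were centred on their medians.

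Carriers of di- and tricarboxylates, glutamate and aspartate had negative changes in 5 of 7 tested members. Slc25a22, a glutamate carrier, read 6.02, 6.01 and 6.00 in wild types and 5.59, 5.88 and 5.79 in knockouts. The wild types were almost level and all knockouts lay below them (-0.26 ± 0.10 SE, limma adjusted p = 0.224). The second glutamate carrier, Slc25a18, had a change of 0.25 ± 0.14 (SE). It was dim, at 4.57 to 5.11 over all arrays, and a stricter filter at 5.40 left it out. The malate-aspartate shuttle carriers were little different between genotypes on average. Slc25a12 read 11.55, 11.62 and 11.66 in wild types and 11.45, 11.88 and 11.30 in knockouts, and Slc25a11 read 10.58, 10.58 and 10.50 against 10.42, 10.75 and 10.38. In both carriers knockout array 2 was above all wild types and the other knockouts below them, so that their mean changes of -0.07 and -0.04 hide a spread among the knockouts (SD 0.300 and 0.200) that exceeded the wild types' (0.0523 and 0.0464). With array weights the changes were 0.0019 and 0.03. Slc25a13, the aspartate/glutamate carrier typical of liver, had a change of 0.06 ± 0.10 (SE). It was also dim, at 4.74 to 4.88 over all arrays, and the stricter filter left it out.

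The citrate carrier Slc25a1, which exports carbon for fatty acid synthesis, read 7.28, 7.80 and 7.96 in wild types and 7.46, 7.51 and 7.42 in knockouts. The dicarboxylate carrier Slc25a10 read 6.45, 6.68 and 7.00 in wild types and 6.17, 6.56 and 6.60 in knockouts. In both carriers wild type array 1 was the lowest wild type. It lay below all knockouts in Slc25a1 and below knockout arrays 2 and 3 in Slc25a10. The changes were -0.21 ± 0.16 and -0.27 ± 0.17 (SE, limma adjusted p = 0.543 and 0.439), and their size rested on single arrays. Slc25a1 stood at -0.41 without wild type array 1 and at -0.07 without wild type array 3. Slc25a10 stood at -0.40 and -0.12 without the same arrays, and at -0.13 without knockout array 1. Adipocyte markers had the same low array, with a summed intensity of 3263 in wild type array 1, 5077 and 5196 in arrays 2 and 3, and 3316 to 3585 in knockouts, over 10 of 12 listed genes. Their part in the 2 carriers' values was not tested. The oxodicarboxylate carrier Slc25a21 read 3.43 to 3.89 over all arrays, just under the dim filter, and had no test.

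Relatives of the uncoupling proteins had no group separation: Slc25a27 was at -0.22 ± 0.11 (SE, limma adjusted p = 0.344), with 7.06, 7.13 and 7.08 in wild types and 6.85, 7.07 and 6.68 in knockouts, Slc25a14 was at -0.02 and Slc25a30 at 0.11. Of the remaining 8 tested members, 4 were negative and 4 positive. Slc25a46, an outer membrane protein of mitochondrial shape, read 9.51, 9.59 and 9.64 in wild types and 9.75, 9.68 and 9.75 in knockouts, all of them higher (0.15 ± 0.08 SE, limma adjusted p = 0.401). Slc25a34 lay lower in all knockouts, by a mean of -0.12. The others, Slc25a35, Slc25a43, Slc25a45, Slc25a47, Slc25a48 and Slc25a53, had overlapping groups and changes from -0.10 to 0.15. Slc25a54 read 2.50 to 3.04, under the dim filter.

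To show what lies upstream of some carriers with low or high knockout readings, the 250 bases before the annotated start of 4 of them are given, from RefSeq, build GRCm38.p6. Slc25a33, Slc25a16 and Slc25a38 are among those with low knockout readings and Slc25a24 has the largest positive change, while Slc25a44, Slc25a37 and Slc25a26 had no entry. Slc25a22 has 3 annotated starts and is not shown. The windows are chr4:149774268-149774517 (minus strand), chr10:62920383-62920632, chr9:120110132-120110381 and chr3:109122899-109123148 (plus strand), written 5′ to 3′ with motif matches in capitals.
Slc25a33: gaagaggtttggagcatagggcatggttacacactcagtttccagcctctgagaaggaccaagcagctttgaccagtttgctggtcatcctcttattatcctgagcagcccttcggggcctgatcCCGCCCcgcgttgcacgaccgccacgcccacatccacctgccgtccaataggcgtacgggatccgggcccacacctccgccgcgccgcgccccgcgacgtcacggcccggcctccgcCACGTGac
Slc25a16: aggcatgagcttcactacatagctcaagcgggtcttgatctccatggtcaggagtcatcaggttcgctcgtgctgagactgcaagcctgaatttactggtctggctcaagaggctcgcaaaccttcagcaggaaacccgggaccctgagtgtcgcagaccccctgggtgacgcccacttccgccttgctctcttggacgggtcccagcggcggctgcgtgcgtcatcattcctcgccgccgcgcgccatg
Slc25a38: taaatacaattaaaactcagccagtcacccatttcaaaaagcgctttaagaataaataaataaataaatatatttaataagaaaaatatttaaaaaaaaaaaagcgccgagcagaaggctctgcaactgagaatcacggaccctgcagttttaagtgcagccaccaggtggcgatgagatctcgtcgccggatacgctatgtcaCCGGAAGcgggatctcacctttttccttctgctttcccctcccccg
Slc25a24: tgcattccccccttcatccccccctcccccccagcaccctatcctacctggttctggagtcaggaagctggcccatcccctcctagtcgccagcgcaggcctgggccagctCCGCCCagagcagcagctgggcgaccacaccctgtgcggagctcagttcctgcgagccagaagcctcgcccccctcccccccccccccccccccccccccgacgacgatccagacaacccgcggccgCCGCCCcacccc

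The motifs searched, on both strands, were GGGCGG (the GC box of Sp1), CCGGAAG (ETS factors), CACGTG (an E-box), TGACGTCA (the cAMP response element), GCATGCGC (nuclear respiratory factor 1) and TCAAGGTCA (oestrogen-related receptors). Matches in the 4 windows did not overlap each other. The Slc25a33 window held 1 GC box and 1 E-box, the Slc25a38 window 1 ETS motif, the Slc25a24 window 2 GC boxes and the Slc25a16 window none, with a GC content of 64.4%, 41.6%, 72.8% and 60.8%. Of the 45 carriers, 35 had an entry, with 45 windows among them. The GC box was in 68.9% of these windows, in 51.4% of the windows of all tested genes and in 32.7% of all windows listed. The E-box was in 17.8% of the carriers' windows, against 7.66% and 6.02%, and the ETS motif in 11.1%, against 10.6% and 6.91%. The cAMP response element and the NRF1 motif were in 4.44% each, against 2.26% and 3.49% of the windows of tested genes and 1.55% and 2.26% of all windows. The carriers' windows include those of untested carriers. The NRF1 motif was found only in Slc25a31 and Slc25a54, which were not tested, so no tested carrier had it. Slc25a31 is also among the carriers with the E-box and Slc25a54 among those with the ETS motif. The receptor motif was in none, against 0.277% and 0.387%. A match is a run of letters and not a binding site.

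Knockout array 2 lay nearest to the wild type mean in 25 of the 42 carriers (59.5%, against 45.8% of all genes), of which Slc25a2 is a tie with knockout array 3. The median shift of the carriers from their wild type means was -0.17, -0.04 and -0.11 in knockout arrays 1, 2 and 3 and -0.03, 0.02 and 0.02 in the wild types. For all genes it was -0.05, 0.03 and 0.0033 in the knockouts. The knockout SD exceeded the wild type SD in 27 carriers (64.3%, against 75.4% of all genes), with medians of 0.131 and 0.0874. Without knockout array 2, 3 of 42 carriers passed an adjusted p of 0.05 by limma (7.14%), namely Slc25a44, Slc25a16 and Slc25a24, while 6.17% of all genes did, so the carriers were called about as often as other genes. In that comparison 12 were lower (28.6%, against 12.8% of all genes) and 2 higher (4.76%, against 9.66%) at an unadjusted limma p under 0.05. Array 2 was singled out by these same values, so the counts without it are no separate support for a difference.

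**Figure D3:**
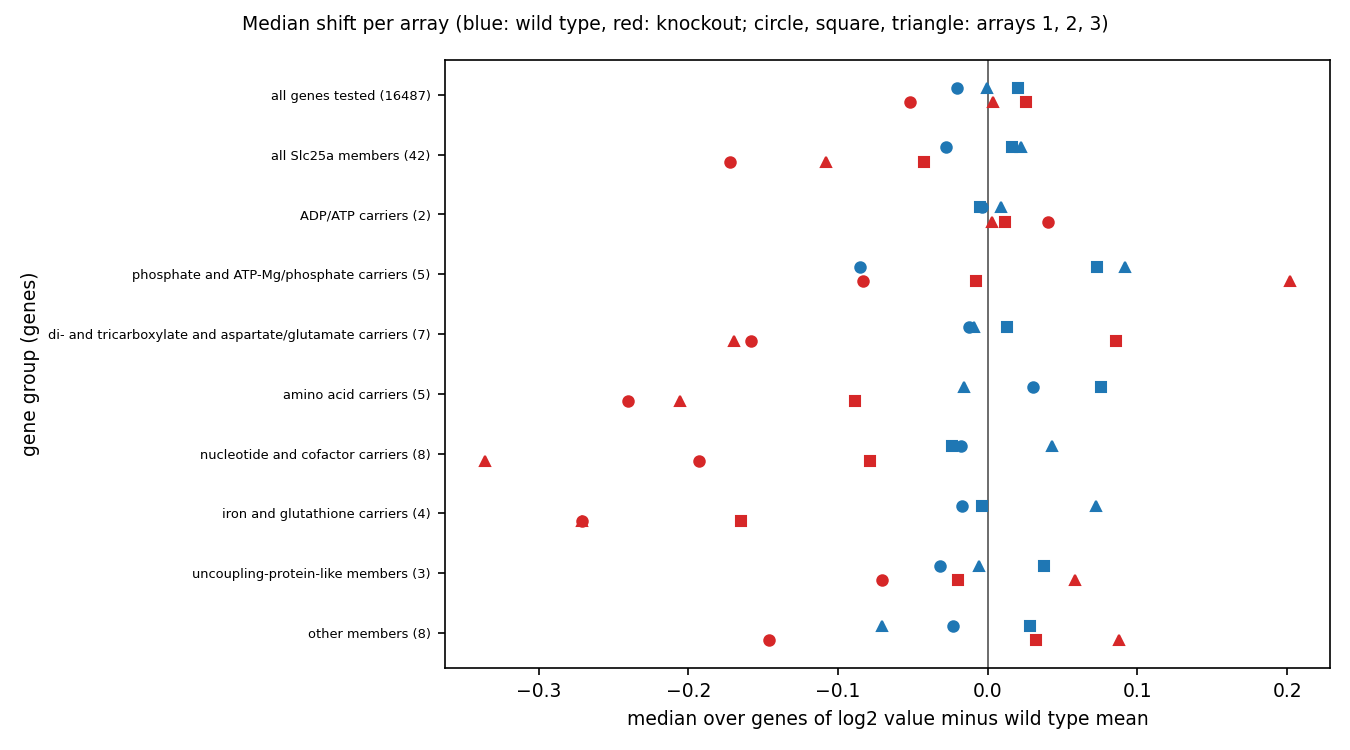
Median over genes of the log2 value minus the gene's wild type mean (horizontal axis) in each array, for all tested genes, the Slc25a genes and their groups, with the number of genes in brackets. All knockout arrays lie to the left of the wild types for the carriers as a whole and for the amino acid, the nucleotide and cofactor and the iron and glutathione carriers.

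Related carriers were set against each other within each array, in 8 pairs chosen with these values known. A log2 ratio within an array shows unequal change and cannot say which partner moved. The ratio of Slc25a4 over Slc25a5 was 3.56, 3.51 and 3.58 in wild types and 3.20, 3.45 and 3.13 in knockouts, all lower, by a mean of -0.29. For Slc25a33 over Slc25a36 it was -1.86, -2.26 and -2.19 in wild types and -2.61, -2.60 and -2.59 in knockouts. This gave a difference of -0.50 with nearly level knockouts. The ratio of the mitoferrins Slc25a37 over Slc25a28 differed by -0.23, without overlap. That of the glutamate carriers Slc25a22 over the dim Slc25a18 differed by -0.51, also without overlap. These 4 pairs reached the smallest p that 3 against 3 arrays allow, 0.1 in an exact two-sided permutation test, and 0.2 after Benjamini-Hochberg adjustment over the 8 pairs. The other 4 overlapped (exact permutation p of 0.2 to 1). Among them was Slc25a23 over Slc25a24, at -0.63 on average with -0.09 in knockout array 2 and -1.16 in knockout array 1. The pairs were chosen on these values and no p under 0.1 was possible, so the test cannot decide whether a ratio differed. How many other gene pairs show no overlap was not computed.

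**Figure D4:**
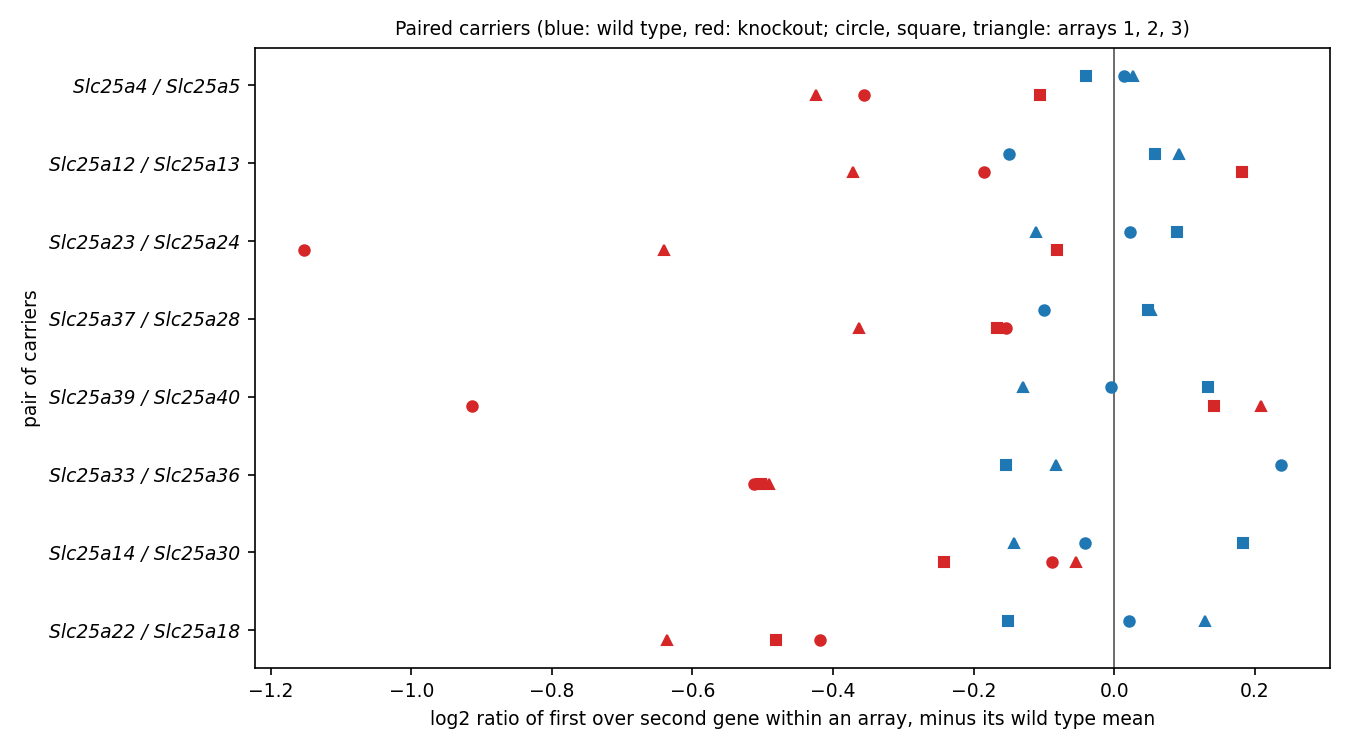
Log2 ratio of paired carriers within each array, minus the wild type mean of that ratio (horizontal axis), with wild type arrays in blue and knockout arrays in red. In 4 pairs, Slc25a4/Slc25a5, Slc25a37/Slc25a28, Slc25a33/Slc25a36 and Slc25a22/Slc25a18, all knockouts lie to the left of all wild types.

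Other genes of mitochondrial transport were described beside the carriers, and none of their 35 tested genes had a limma adjusted p under 0.05, where 0.995% of all genes did, so that a count of 0 is near the background. Of the 4 tested members of the family under other symbols, Ucp3, the uncoupling protein of muscle, had the largest change (-0.68 ± 0.17 SE, limma adjusted p = 0.102). Ucp3 read 9.34, 9.94 and 10.02 in wild types and 9.13, 9.17 and 8.96 in knockouts, with wild type array 1 closest to the knockouts. Ucp1 and Mtch1 were at 0.28 ± 0.12 and 0.24 ± 0.10 (SE). All 3 had an unadjusted limma p under 0.05 and no overlap, 1 of the 4 lower (25%) and 2 higher (50%). Among all genes, 10.3% were lower and 8.16% higher at that p, and 13.8% and 11.1% had no overlap. Ucp1 read 4.15 to 4.60 over all arrays, near the dim filter. Genes that insert carriers into the inner membrane were negative in 8 of 9, with 1 at an unadjusted p under 0.05 (11.1%, about the 10.3% of all genes). This was Timm13, an intermembrane space chaperone, at 7.86, 7.81 and 7.77 in wild types and 7.45, 7.57 and 7.41 in knockouts (-0.34 ± 0.09 SE, limma adjusted p = 0.114). Of 13 other transport genes, 9 were negative (69.2%, against 50% of all genes), 3 of them at an unadjusted p under 0.05 (23.1%, against 10.3% of all genes). In 5 of the 13 all knockouts lay below all wild types (38.5%, against 28.6% of the carriers and 13.8% of all genes). In 1 they lay above (7.69%, against 11.1% of all genes). Sfxn4, a sideroflexin, read 5.64, 5.86 and 5.83 in wild types and 5.28, 5.28 and 5.16 in knockouts (-0.54 ± 0.10 SE, limma adjusted p = 0.0549). Vdac3, a channel of the outer membrane, was at -0.22 ± 0.08 and Sfxn2 at -0.23 ± 0.10 (SE).

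Shuttle enzymes were negative in 5 of 9, and only Gpd1 had an unadjusted limma p under 0.05 (11.1%, about the 10.3% of all genes). Gpd1, the cytosolic enzyme of the glycerol phosphate shuttle, read 10.63, 10.83 and 10.90 in wild types and 9.43, 10.27 and 9.57 in knockouts (-1.03 ± 0.20 SE, limma adjusted p = 0.0573). Its mitochondrial partner Gpd2 was at -0.36 ± 0.18 (SE), with knockout array 2 at 10.20 among the wild types at 9.94 to 10.23. The malate-aspartate shuttle enzymes Got1, Got2, Mdh1 and Mdh2 had changes of 0.15, 0.04, 0.11 and -0.04. General mitochondrial genes of the respiratory chain and citric acid cycle had a median change of -0.03 over 15 tested, against -0.09 for the carriers. Of the 15, 10 were negative (66.7%, against 71.4% of the carriers and 50% of all genes). In 1 of them, Sdha, all knockouts lay below all wild types (6.67%, against 28.6% of the carriers and 13.8% of all genes). Its change was -0.34 ± 0.09 (SE, limma adjusted p = 0.119). Muscle fibre markers, at a median of -0.12, were negative in 9 of 12. In 8 of the 12 all knockouts lay below all wild types (66.7%, against 28.6% of the carriers and 13.8% of all genes). In 1 they lay above (8.33%, against 11.1% of all genes). Slow fibre markers were negative in 7 of 7, where Myl3, a slow myosin light chain, was the one that passed (-1.23 ± 0.18 SE, limma adjusted p = 0.0256). In the 6 other slow fibre markers knockout array 3 read above every wild type, and the median shift of the list was -0.79, -1.18 and 0.33 in knockout arrays 1 to 3. Endothelial markers had a median of -0.0084 over 9 genes. The part of fibre type or of other cells in the carriers' values was not tested.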

How the data were processed

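The authors deposited 1 table of probe set intensities on a linear scale for 6 arrays, for which the submitters' processing notes name RMA and Affymetrix Expression Console. RMA normalizes all arrays together and shrinks differences of dim probe sets. No build is named for the table. Values ran from 1.59 to 13565.8 over 35556 probe sets, with no detection calls, and 0 columns were left unmapped. The plan had assumed log2 values, so log2 of the intensity was taken with no offset. Signal is not comparable between probe sets, so levels are compared only within a gene, and precision is limited by having 3 arrays a group.

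Symbols came from the platform annotation (21789 probe sets with 1 symbol, 1621 with several, 12146 unnamed), and all 45 carriers matched RefSeq GRCm38.p6 by Entrez ID. Genes with a mean below 3.90 log2, the 25th percentile of the means of all probe sets, were left out, which left 16487 of 19938. The test between genotypes was limma (3.58.1, under R 4.3.3; two-sided, eBayes with trend, Benjamini-Hochberg over all genes, threshold 0.05). Groups follow the sample titles. Values per array are given for the 10 carriers with the smallest p, the 5 brightest, the one with the smallest p in each group, and some others chosen after their values were seen. Errors are SDs over 3 arrays, or moderated SEs of a log2 change. Members, groups and lists were chosen with earlier results of these data known. The procedure was tested on simulated data with the same spread in both groups. The wider spread of the knockout arrays was not part of that test. Alternatives covered scaling, filter, probe set choice, offset, variance model, array weights, a replicate block and leaving out each array. Since the p-values measure the spread between these mice, they carry no check against litter or batch.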

Additional observations from a re-analysis of the deposited data

How the results depend on the processing

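Of the 664 values of the 42 carriers over 16 alternatives, 635 kept their direction and their side of the threshold. The 3 that gained significance were those of Slc25a44, Slc25a16 and Slc25a24 without knockout array 2. No carrier passed under any other alternative, the replicate block included, and the count of carriers passed was 0 to 3 with 1 array left out. Over all genes, 103 passed with arrays centred on their median (which shifts the median of all genes to -0.04), 329 with array weights, and 27 to 1017 with 1 array left out, the highest without knockout array 2. Without wild type arrays 1, 2 and 3, 32, 30 and 27 genes passed. With the replicate block 123 passed. Over all tested genes, deviations of same-numbered samples had correlations of 0.0088, 0.08 and -0.02, and those of differently numbered samples ran from -0.0632 to 0.0456. Such small correlations do not settle whether the numbers pair the samples. The median change of the carriers was -0.14 to -0.07 with 1 array left out. In 26 cases, in 10 carriers with a change under 0.13, the sign turned. With array weights Slc25a11, Slc25a12, Slc25a42 and Slc25a47 turned to 0.0312, 0.0019, 0.0516 and 0.0344. Slc25a3 turned to -0.0313 with centred arrays, and Slc25a42 to 0.0101 after a second quantile normalization. With 1 array left out, the changes ran from -0.0509 to 0.0634 for Slc25a3, -0.150 to 0.0312 for Slc25a11, -0.235 to 0.0548 for Slc25a12, -0.0590 to 0.0542 for Slc25a14, -0.148 to 0.102 for Slc25a32, -0.0780 to 0.0789 for Slc25a35, -0.312 to 0.0832 for Slc25a40, -0.147 to 0.0785 for Slc25a42, -0.0748 to 0.281 for Slc25a43 and -0.176 to 0.0717 for Slc25a47. The cause of these turns was not tested. With 3 arrays a group and dim signals compressed by RMA, a missed threshold does not show that a carrier did not differ.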
